A study of Glycine max with 46 samples.

Results

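The auxin response and efflux genes of soybean (Glycine max) were taken as all genes whose description in the deposited tables, which names the closest Arabidopsis protein, read auxin-inducible or AUX/IAA regulator, auxin response factor, or auxin efflux carrier. The rule gave 144 of 56044 genes, of which 46 were AUX/IAA genes, 50 were auxin response factors (ARF) and 48 were efflux carriers. Of the efflux carriers, 24 were closest to a named Arabidopsis PIN protein (PIN-type below) and 24 were described as carriers of the family without a PIN symbol. The names IAA14, ARF8 or PIN3 below are those of the closest Arabidopsis gene.

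AUX/IAA proteins are short-lived repressors that bind ARF transcription factors on auxin-responsive genes. Auxin brings the repressor to TIR1 or AFB receptors, which mark it for breakdown and free the ARF, and many AUX/IAA genes are themselves switched on by auxin. Several PIN proteins of Arabidopsis export auxin from cells and set the direction of its flow, which shapes embryos, vascular strands, roots and fruits. Whether each member described as an efflux carrier exports auxin from the cell is not given by its description.

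Transcript levels were given as RPKM, reads per kilobase of cDNA scaled to the library's total alignments, in a table of 38 libraries and, normalised apart from it, a table of 8 libraries. The 8 libraries came from seed coats of the Williams cultivar, which has a black hilum, the scar of the seed's attachment, on a yellow coat. They held the hilum and the coat without the hilum, each at a seed fresh weight of 25-50 mg and of 50-100 mg with 2 biological repeats. Seed coats at 300-400 and 400-500 mg (late) and at several ranges between 10 and 100 mg (early) came from T157 (i R t, an i mutation, imperfect black coat) and its counterpart Richland (I R t, yellow coat). They also came from W44 (Williams 44, i RT w1, an i mutation with an inversion, black coat) and from W43 (Williams, i-i RT w1, yellow coat with black hilum). W55 (Williams 55, an i mutation with a deletion, black coat) gave late coats, coats of 5-6 mg seeds and whole seeds at 5 days after flowering (DAF). Its genotype reads i R w1, i-i RT w1 or iRT w1 in different labels. Whole seeds at 5 DAF also came from T157 and Richland. Coats of 5-6 mg seeds came from UC9 (Clark, i R T W1, an i mutation with a deletion), from UC508 (a Harosoy isoline with defective coats, I r T W1, Def and net) and from UC501 (Harosoy, I r T W1). RM38, a brown-coated Clark isoline (i r T W1), gave a 25-50 mg coat. Young leaves of 4-week plants came from T157 and Richland, and young roots of 4-week plants from W55 and from W54 (Williams, i-i RT w1). Roots of 5-day Williams seedlings (i-i RT w1) were flooded for 12 h or 24 h, and the flower library came from L79-908, a purple-flowered W1 isoline of Williams, whose label gives the genotype i-i RT w1 together with W1. All plants were grown in a greenhouse.

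Counted alignments per library ran between 18.1 M and 545.0 M, and the values in every library were whole numbers of reads within a tolerance of 0.01 reads. In most libraries 7.58% to 18.0% of the alignments fell in models without a description. The share was 88.6% and 80.6% in the W55 coats of 5-6 mg and 56.2% in the W44 coat of 50-100 mg, so RPKM of all other genes is low in these 3 libraries. Apart from the hilum and the W55 libraries, each line and weight or tissue had 1 library, and nothing in the labels says that libraries of different weights came from separate plants. The p-values therefore measure the spread between libraries. The leaf marker sum (photosystem, light-harvesting and Rubisco small-chain genes) was 32919 to 68717 RPKM in leaves, against 104 to 117 RPKM in roots. Root markers summed to 343 to 459 RPKM in roots and to 38.5 to 39.8 RPKM in leaves. The MADS-box flower genes summed to 892 RPKM in the flower, below the 1262 to 1508 RPKM of late coats, so this list did not single out the flower. Because the samples are pieces of tissue, fewer cells of a type and less RNA per cell cannot be told apart.

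Of the 144 members, 122 reached 1 RPKM in a library of the larger table and 22 did not, namely 9 AUX/IAA, 1 ARF and 12 efflux genes. A level of 10 RPKM was reached by 72 members, and 2 members had no read in any library. The highest level was that of the IAA17-type gene Glyma.13G361200, at 182.2 RPKM in a W55 whole seed. AUX/IAA genes had the largest median sum of the roles in every tissue. It was 818 RPKM in whole seeds, 776 in late coats, 475 in early coats, 458.7 in roots and 317 in leaves. The ARF sum ranged less, with medians of 227 RPKM in late coats, 282 in early coats, 253.4 in leaves and 446 in roots. PIN-type genes summed to 61.8 to 89.1 RPKM in whole seeds, to 67.8 and 74.3 RPKM in flooded roots, and to 12.5 to 36.2 RPKM in early coats. The carriers without a symbol summed to 65.4 to 139.4 RPKM in late coats and to 13.4 to 41.2 RPKM in early coats, so these groups of libraries did not overlap. The lowest early-coat sums of both kinds of carrier, 12.5 and 13.4 RPKM, were those of the W44 coat of 50-100 mg, whose RPKM is low throughout.

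**Figure D1:**
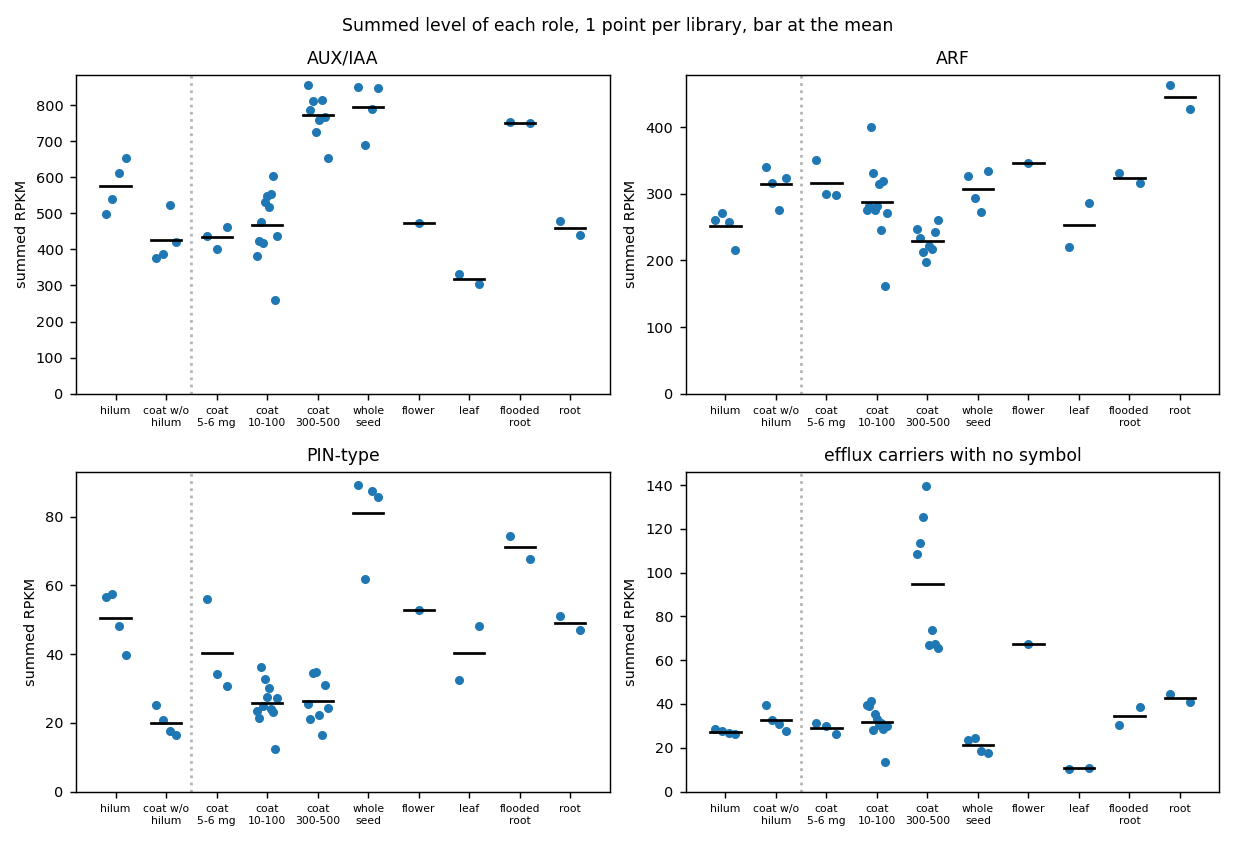
Summed RPKM of the AUX/IAA, ARF, PIN-type and other efflux genes, 1 point per library, with a bar at the mean of each tissue (vertical axis from 0). The dotted line parts the 2 tables, which were normalised separately. The carriers without a symbol stand at 65.4 to 139.4 RPKM in the 8 late coats and at or below 41.2 RPKM in the 11 early coats.

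Individual copies had sharply different tissue patterns even under the same Arabidopsis name. Of the IAA14-type genes, named for the Arabidopsis repressor of lateral root formation, Glyma.03G158700 averaged 81.9 RPKM in late coats, 38.2 in whole seeds and 4.19 in roots. Its paralog Glyma.10G180100 reached at most 0.0828 RPKM in any coat, hilum or whole seed. The same gene stood at 18.3 and 34.1 RPKM in the leaves of T157 and Richland and at 16.8 and 23.3 RPKM in the roots of W55 and W54. Glyma.20G210400, also closest to IAA14, was low in seed tissues too, with at most 0.0796 RPKM in coats, hilum and whole seeds and 40.1 and 43.9 RPKM in flooded roots. The IAA17-type pair had the reverse pattern. Glyma.13G361200 averaged 140 RPKM in whole seeds, 123 in late coats and 88.0 in early coats, and lay between 0.152 and 1.86 RPKM in leaves and roots. Glyma.15G012700 averaged 88.1 RPKM in whole seeds and 62.7 in late coats and lay between 0.182 and 1.49 RPKM in leaves and roots. In Arabidopsis IAA17 (AXR3) is a repressor whose stabilised form blocks auxin responses in root and shoot.

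The ARF2-type gene Glyma.03G208800 was found mainly in seed coats. It averaged 17.3 RPKM in early coats and 18.4 RPKM in the coat without the hilum. In leaf, root, flooded root and flower it stayed at or below 0.0498 RPKM. In Arabidopsis ARF2 limits cell division in the integuments, the layers that become the seed coat. The ARF2-type genes Glyma.04G200600 and Glyma.05G200800 were found throughout. Leaving aside the W55 coats of 5-6 mg, Glyma.04G200600 averaged 12.96 to 28.6 RPKM in the tissues and Glyma.05G200800 12.1 to 25.1 RPKM.

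**Figure D2:**
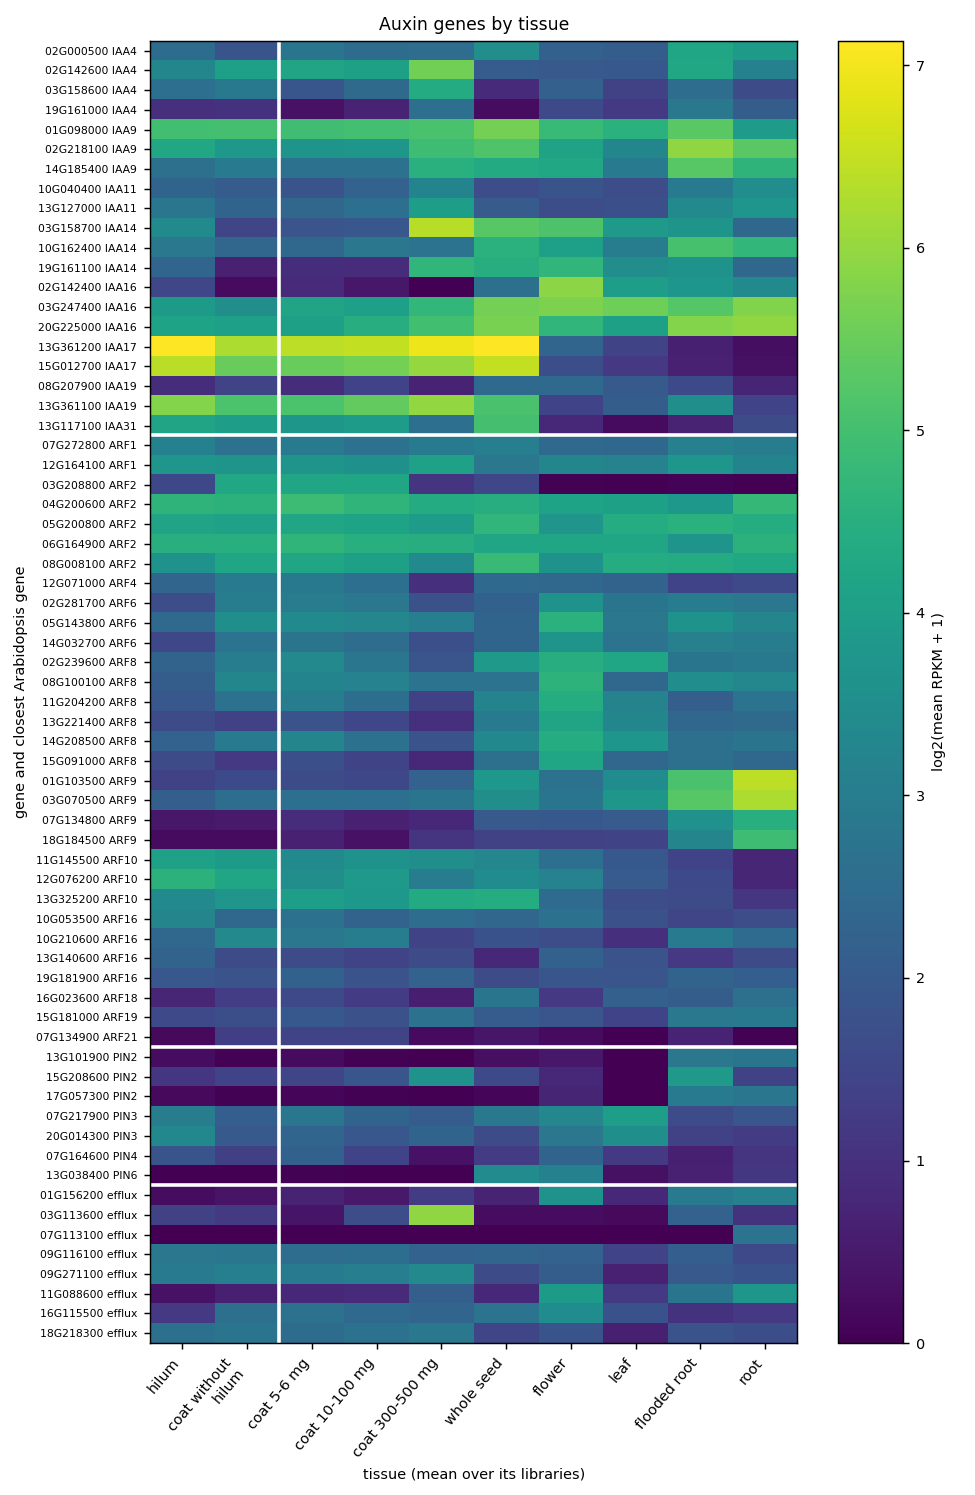
Mean level of named auxin genes (rows, with the closest Arabidopsis gene; efflux marks carriers without a symbol) in each tissue (columns), as log2(mean RPKM + 1). Lines part the roles and the 2 tables; the IAA17-type gene Glyma.13G361200 is brightest in hilum and whole seed, at 137.1 and 140 RPKM.

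The tissue with the highest mean was looked up for the 120 members that reached a tissue mean of 1 RPKM. It was the flower for 36 members, or 30% of them, against 14.1% of all genes. Efflux carriers without a symbol (8 of 17), PIN-type carriers (8 of 19) and ARF genes (15 of 47) were the most frequent there. Flooded root was the highest tissue of 12 of 37 AUX/IAA genes, against 12.1% of all genes. Late coat was highest for 15 of the 120 members (11.6% of all genes), whole seed for 17 (21% of all genes), root for 13 (17.5% of all genes) and leaf for 4 (12.5% of all genes). Early coat was highest for 7 members (3.22% of all genes), and the 5-6 mg coats of UC9, UC508 and UC501 for 6 (7.97% of all genes), all ARF genes. The flower and each flooding time had a single library, and these counts carry no test.

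ARF6 and ARF8 in Arabidopsis drive the opening and ripening of the flower organs. The flower held the highest tissue mean of 3 of 4 ARF6-type genes and of 9 of 9 ARF8-type genes. Glyma.08G100100 (ARF8) had 23.4 RPKM in the flower, Glyma.02G239600 (ARF8) 20.9 RPKM and Glyma.05G143800 (ARF6) 22.7 RPKM. The same 3 genes averaged 5.61, 2.70 and 7.23 RPKM in late coats. The lead over the next tissue was small for Glyma.02G239600, which averaged 17.5 RPKM in leaves and 13.1 RPKM in whole seeds. Glyma.02G142400, an IAA16-type repressor, had 58.3 RPKM in the flower, 15.4 and 13.9 RPKM in leaves and a mean of 0.0134 RPKM in late coats. Line and tissue cannot be told apart here, because the flower came from a line sampled for no other tissue.

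The dissected Williams seed coats ask which genes differ between the black hilum and the rest of the coat. The PIN-type carriers were higher in the hilum, 7 of 9 tested, and none was lower. The ARF genes went mostly the other way, with 5 higher and 18 lower of 41. AUX/IAA genes were higher in 11 cases and lower in 1 of 30. The test was limma on log2(RPKM + 1) over all genes with a mean of at least 1 RPKM, adjusted by Benjamini-Hochberg over all 29296 genes tested, with 0.05 as the threshold and the weight range as a covariate. In all, 86 members were tested, of which 23 were higher and 20 lower. Over all genes 40% passed, with 13.4% higher and 26.6% lower, and the median log2 fold change was -0.11. The members' medians were 0.87 for PIN-type genes, 0.19 for AUX/IAA genes, -0.27 for ARF genes and -0.03 for the carriers without a symbol.

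Sums of other gene lists were also taken in both tissues. Genes of xylem and secondary walls, 83 by description, summed to 993 to 1732 RPKM in the hilum and to 372 to 1008 RPKM in the coat without hilum. These ranges overlap. Cell division genes summed to 1590 to 1953 RPKM in the hilum and to 2199 to 3803 RPKM in the coat without hilum. Their part in the differences below was not tested.

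Of the PIN-type carriers, the PIN3-type genes, whose Arabidopsis counterpart redirects auxin in bending organs, were both higher in the hilum. Glyma.20G014300 had 9.65, 9.09, 9.83 and 7.84 RPKM in the hilum and 3.26, 2.85, 3.34 and 2.54 RPKM in the coat. Every hilum library was above every coat library, and the log2 fold change was 1.34 (SE 0.10, limma adjusted p = 9.5e-05). Glyma.07G217900 averaged 6.95 ± 0.900 RPKM in the hilum and 3.36 ± 0.711 RPKM in the coat (SD, n = 4 each). The PIN4-type gene Glyma.07G164600 was higher by 0.49 with overlapping libraries. Among the carriers without a symbol only Glyma.16G115500 passed, and it was lower. It had 1.31, 2.02, 1.07 and 0.724 RPKM in the hilum and 7.31, 6.45, 3.68 and 3.24 RPKM in the coat, with no overlap and a log2 fold change of -1.41.

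**Figure D3:**
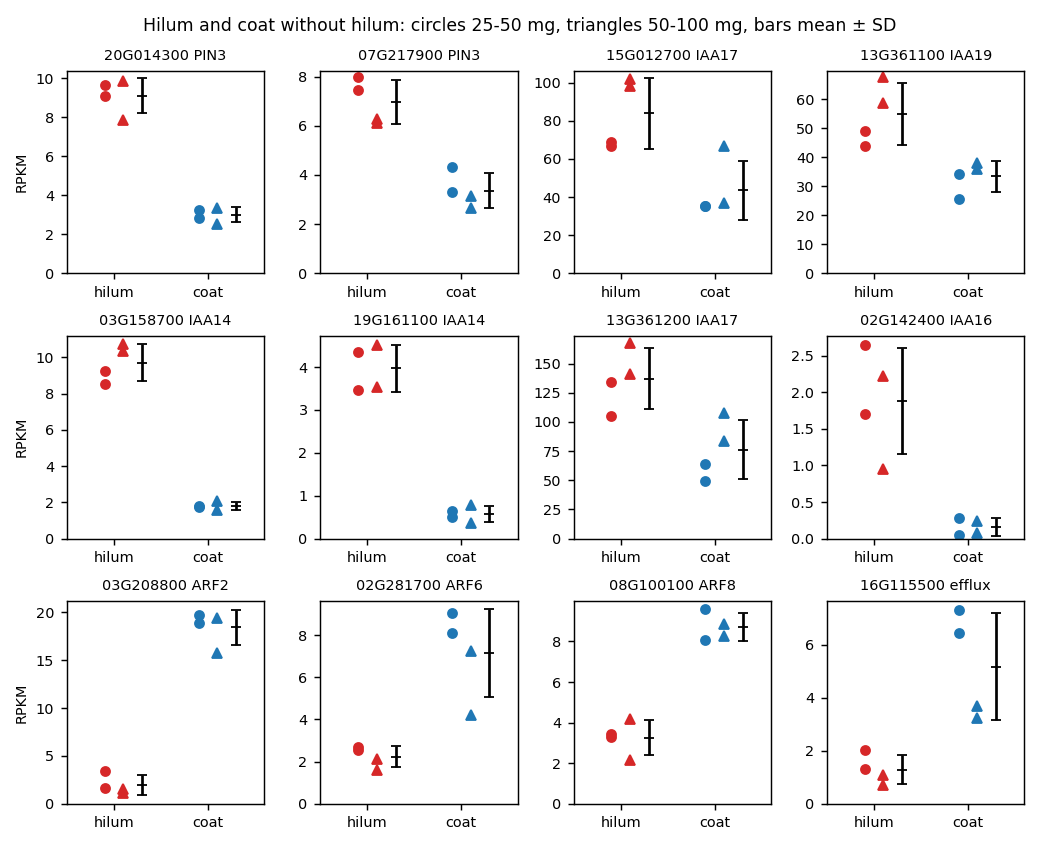
RPKM of 12 auxin genes in the hilum (left, red) and the coat without hilum (right, blue) of Williams; circles are 25-50 mg, triangles 50-100 mg, and black bars give the mean and SD of 4 libraries. PIN3- and IAA14-type genes stand higher in the hilum, and Glyma.03G208800 (ARF2) at 1.94 RPKM there against 18.4 RPKM in the coat.

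The AUX/IAA repressors that rose in the hilum were led by the IAA14 type, with 3 of 3 tested genes higher. Glyma.03G158700 had 9.23, 8.52, 10.4 and 10.7 RPKM in the hilum and 1.80, 1.73, 2.08 and 1.59 RPKM in the coat. The groups were far apart, with a log2 fold change of 1.93 (SE 0.09, limma adjusted p = 1.57e-05). Glyma.19G161100, the other gene of this pattern, averaged 3.97 ± 0.547 RPKM in the hilum and 0.573 ± 0.182 RPKM in the coat (SD, n = 4 each). Both IAA17-type genes, the most abundant members of the coat, were higher as well. Glyma.13G361200 had 105 to 168 RPKM in the hilum and 49.4 to 107 RPKM in the coat. These ranges touch, and the log2 fold change was 0.88 (SE 0.17, limma adjusted p = 0.0055). Glyma.15G012700 was higher by 0.96. IAA19-type genes, whose Arabidopsis counterpart acts in bending of the stem, were higher in 2 of 4 cases, with 54.8 RPKM in the hilum against 33.5 RPKM in the coat for Glyma.13G361100. Glyma.02G142400 (IAA16) averaged 1.88 RPKM in the hilum and 0.159 RPKM in the coat. The only AUX/IAA gene called lower in this fit was Glyma.02G142600 (IAA4), at -0.70 with overlapping libraries. Its limma adjusted p was 0.0159, and 0.0511 without the coat library of 25-50 mg, replicate 2.

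The ARF genes that fell in the hilum were led by Glyma.03G208800, the coat gene of the ARF2 type. It had 1.64, 3.47, 1.15 and 1.51 RPKM in the hilum and 18.9, 19.7, 15.8 and 19.4 RPKM in the coat. The libraries did not come near each other, and the log2 fold change was -2.78 (SE 0.18, limma adjusted p = 5.15e-05). Of the ARF6 type 3 of 4 genes were lower and none higher, and of the ARF8 type 5 of 7 were lower and 1 higher. Glyma.02G281700 (ARF6) averaged 2.23 ± 0.494 RPKM in the hilum and 7.15 ± 2.09 RPKM in the coat (SD, n = 4 each). Glyma.08G100100 (ARF8) averaged 3.26 ± 0.844 RPKM in the hilum and 8.71 ± 0.692 RPKM in the coat (SD, n = 4 each), without overlap. The single higher ARF8-type gene, Glyma.15G091000, was higher by 0.41 with a limma adjusted p of 0.0301, and missed the threshold without any of 6 of the 8 libraries. ARF16-type genes, which in Arabidopsis are repressing factors cut by a microRNA, were split with 2 higher and 2 lower of 7. Glyma.10G053500 averaged 8.54 RPKM in the hilum and 4.24 RPKM in the coat, while Glyma.12G174100 averaged 6.43 RPKM in the hilum and 10.6 RPKM in the coat.

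Scaling mattered for the balance of calls in this table. With libraries rescaled by the median ratio over genes, 28 members were higher and 19 lower, and the share of higher calls among all genes was 51.2% in place of 33.5%. With the library-number series as a block, 28 members were higher and 26 lower, against 5051 and 9712 of all 29296 genes. Of the 30 AUX/IAA genes tested, 13 were then higher and 5 lower, so their balance depended on the block. Between the weights, 50-100 against 25-50 mg, no member of 86 passed the limma test, against 1.07% of all genes (0.386% higher and 0.683% lower). An unadjusted p under 0.05 was found for 27 members and for 7045 of all 29296 genes. With the series as a block 3 members were higher and 4 lower. The hilum difference changed between the weights for no member by limma, against 0.0137% of all genes (0.0102% with a positive and 0.00341% with a negative interaction). Here 2 members and 1365 of all 29296 genes had an unadjusted p under 0.05.

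Late against early coats asks what changes as the coat finishes growing. AUX/IAA genes were mostly higher late, 18 of 31 tested with 2 lower, and ARF genes mostly lower, 22 of 41 with 7 higher. The PIN-type genes were split, with 2 higher and 4 lower of 8. Carriers without a symbol held the largest single rise among the members. The fit held the 19 coats of T157, Richland, W44 and W43 with line as a covariate, 8 late against 11 early, and the weights of a line stood in for replicates. Of 87 members tested 29 were higher and 29 lower. Over all 29263 genes 57.7% passed, 26.6% higher and 31.1% lower, with a median log2 fold change of -0.03. The medians of the members were 0.54 for AUX/IAA genes and -0.53 for ARF genes. Of the 29 higher members 27 were higher in each of the 4 lines, and of the 29 lower members 27 were lower in each. The same libraries made the calls, so these counts are no separate check of them.

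Other measures moved with weight too. Cell division genes summed to 1102 to 1421 RPKM in late coats and to 1656 to 4452 RPKM in early coats. The photosynthesis list summed to 343 to 669 RPKM in late coats and to 1061 to 3493 RPKM in early coats. Their part in the auxin gene differences was not tested.

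Glyma.03G158700, of the IAA14 type, had a lowest, median and highest level of 27.5, 81.3 and 145.6 RPKM in late coats, against 1.48, 2.78 and 3.55 RPKM in early coats. Every late coat was above every early coat. The log2 fold change was 4.18 (SE 0.22, limma adjusted p = 8.15e-12). Late levels are given by line, and their difference was not tested by itself. T157 had 77.1 and 85.5 RPKM, Richland 112 and 145.6, W44 27.5 and 29.4, and W43 68.7 and 109 RPKM. The late coats of W55, which were not in the fit, had 21.96 and 26.7 RPKM. Glyma.19G161100 moved alike, with 7.21, 25.5 and 44.9 RPKM in late coats against 0.471, 0.907 and 1.13 RPKM in early coats, a log2 fold change of 3.47. The third expressed IAA14-type gene, Glyma.10G162400, averaged 5.58 RPKM in late coats and 6.07 RPKM in early coats (log2 fold change 0.01, limma adjusted p = 0.962).

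Of the IAA4-type genes 5 of 6 were higher in late coats. Glyma.02G142600 had 30.7, 43.4 and 80.7 RPKM (lowest, median and highest) in late coats and 7.18, 13.2 and 27.3 RPKM in early coats. The late coats were all above the early ones, with a log2 fold change of 1.58 (SE 0.23, limma adjusted p = 6.91e-06). In the hilum this gene was the only AUX/IAA member called lower than in the coat by the fit without the series as a block. Both IAA11-type genes were higher, with 14.8 ± 2.97 RPKM in late coats (SD, n = 8) and 5.09 ± 1.61 RPKM in early coats (SD, n = 11) for Glyma.13G127000. Of the IAA9 type 2 of 4 were higher. Glyma.14G185400 averaged 22.3 ± 9.23 RPKM in late coats (SD, n = 8) and 5.30 ± 1.67 RPKM in early coats (SD, n = 11). Glyma.13G117100, of the IAA31 type, fell by 1.27 on the log2 scale with overlapping libraries. By line, late minus early was -2.59 in Richland, -2.02 in W43, -0.40 in T157 and -0.26 in W44. Differences between single lines were not tested. In Arabidopsis IAA31 lacks much of the degradation motif of the family.

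**Figure D4:**
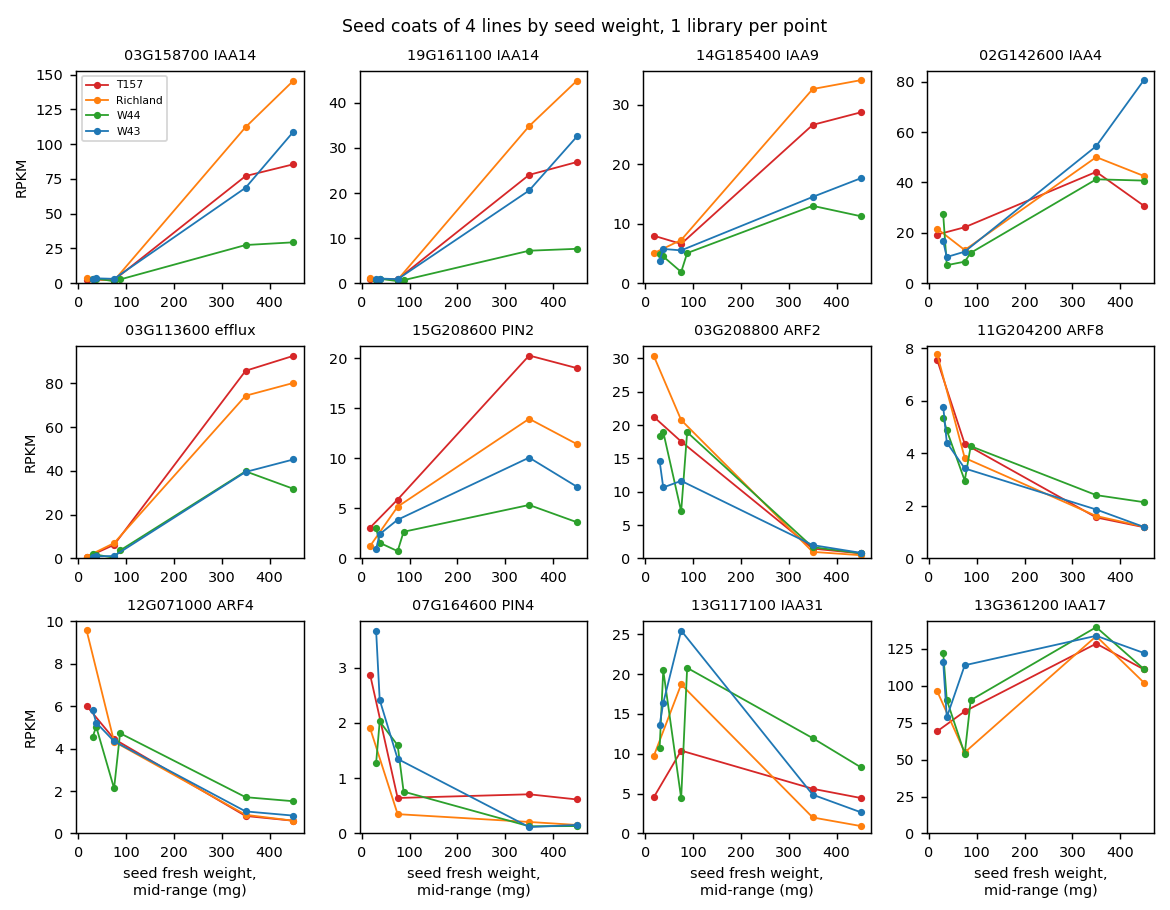
RPKM of 12 auxin genes in seed coats of T157, Richland, W44 and W43 against the middle of the seed weight range in mg, 1 library per point. Glyma.03G158700 (IAA14) reaches 27.5 to 145.6 RPKM above 300 mg and stays at or below 3.55 RPKM up to 100 mg, and Glyma.03G208800 (ARF2) is at or below 1.99 RPKM above 300 mg; the dip of W44 near 75 mg is its 50-100 mg library.

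The carrier without a symbol that rose most was Glyma.03G113600. It had 31.8, 59.7 and 92.5 RPKM (lowest, median and highest) in late coats and 0.285, 1.09 and 6.98 RPKM in early coats. No early coat came near the late ones, and the log2 fold change was 4.34 (SE 0.30, limma adjusted p = 4.23e-10). W55 late coats had 25.6 and 36.5 RPKM, and coats of 5-6 mg had 0.251 RPKM in UC9, 0.212 RPKM in UC508 and 0.533 RPKM in UC501. This gene made up most of the late rise in the sum of the carriers without a symbol. A PIN2-type gene, Glyma.15G208600, had 3.61, 10.7 and 20.3 RPKM in late coats and 0.721, 2.66 and 5.88 RPKM in early coats, with overlap. In Arabidopsis PIN2 carries auxin shootward in the outer root and is needed for root gravitropism.

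The PIN4-type gene Glyma.07G164600 had 0.115, 0.154 and 0.709 RPKM (lowest, median and highest) in late coats and 0.350, 1.596 and 3.67 RPKM in early coats. The ranges overlapped, and the log2 fold change of RPKM + 1 was -1.02 (SE 0.19, limma adjusted p = 0.000144). The PIN3-type gene Glyma.20G014300 passed at 0.40 (limma adjusted p = 0.0471), and missed the threshold in 11 of the 19 fits that left out a library.

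ARF genes that fell were again led by Glyma.03G208800 (ARF2). It had 0.477, 0.904 and 1.99 RPKM (lowest, median and highest) in late coats and 7.04, 18.4 and 30.4 RPKM in early coats, with no overlap. The log2 fold change was -3.09 (SE 0.21, limma adjusted p = 3.12e-10). All 7 tested ARF8-type genes fell, and of the ARF6 type 2 of 3. Glyma.11G204200 (ARF8) averaged 1.64 ± 0.461 RPKM in late coats (SD, n = 8) and 4.96 ± 1.56 RPKM in early coats (SD, n = 11). All 3 tested ARF17-type genes were lower. Glyma.12G071000 (ARF4), whose Arabidopsis counterpart specifies the lower side of leaves, averaged 1.00 RPKM in late coats and 5.11 RPKM in early coats. Higher were, among others, Glyma.15G181000 (ARF19), at 5.51 ± 0.907 RPKM in late coats (SD, n = 8) against 2.38 ± 0.585 RPKM in early coats (SD, n = 11), and Glyma.01G103500 (ARF9), with a log2 fold change of 0.69.

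**Figure D5:**
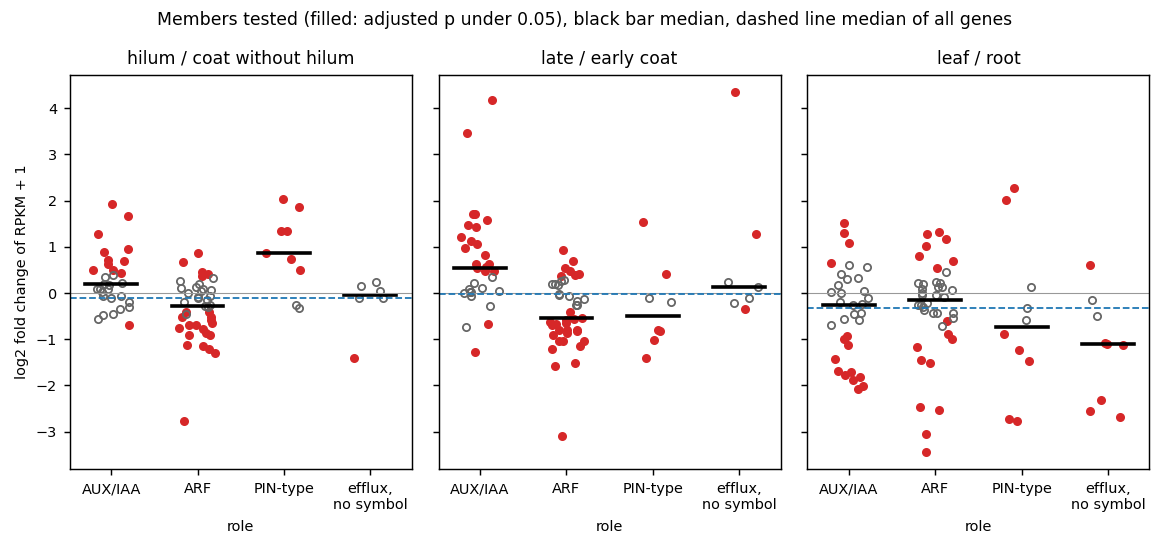
Log2 fold changes of RPKM + 1 for the members tested, by role, for hilum over coat without hilum, late over early coat, and leaf over root. Filled points passed the adjusted p of 0.05, black bars are the medians of the members (0.87 for PIN-type genes in the hilum, -0.53 for ARF genes in late coats), and dashed lines the median of all genes.

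Members tested both in the hilum and in late coats numbered 83, and these comparisons share no library. Of these, 15 were lower in both, against 13.4% of the 27741 genes tested in both, and 7 were higher in both, against 4.41%. Another 5 were higher in the hilum and lower in late coats (3.58% of all genes) and 2 were lower in the hilum and higher in late coats (3.91% of all genes). Leaving out the W44 coat of 50-100 mg gave 30 members higher and 33 lower in late coats. With the Williams lines W44 and W43 alone 19 were higher and 20 lower of 85, against 18.9% and 21.3% of all genes. With T157 and Richland alone 27 were higher and 26 lower of 86, against 22% and 30.8% of all genes.

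Whether the late difference itself differs between the Williams lines and the Richland pair was tested as an interaction. It passed for 0.301% of all genes (0.13% negative) and for 1 of 87 members, the IAA4-type gene Glyma.19G161000. Late minus early, on the log2 scale, was 0.03 in W44, 1.35 in W43, 2.11 in T157 and 2.89 in Richland. The interaction was -1.85 (SE 0.35, limma adjusted p = 0.0211). The late coats held 0.5997 and 0.631 RPKM in W44, 2.63 and 3.45 in W43, 6.02 and 5.67 in T157 and 11.4 and 10.4 RPKM in Richland. With a pseudocount of 0.1 the limma adjusted p was 0.135, and without any of the late libraries of W44 or Richland it was between 0.0707 and 0.0737. Other members were called under other settings, as given among the dependences on processing.

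Coats of 5-6 mg seeds from UC9, UC508 and UC501 had 1 library each. Glyma.03G158700 (IAA14) had 2.71 RPKM in UC9, 2.50 RPKM in UC508 and 2.95 RPKM in UC501. Glyma.03G208800 (ARF2) had 25.3 RPKM in UC9 and 13.04 RPKM in UC508, with UC501 between these values. The brown coat of RM38 at 25-50 mg had 4.26 RPKM of the IAA14-type gene and 13.5 RPKM of the ARF2-type gene. None of these libraries entered a test.

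Lines with and without pigment were compared at matched weights. No member passed between T157 and Richland, of 86 tested by limma over 8 coats, with 13 at an unadjusted p under 0.05. Over all 29080 genes 0% passed, with 4647 at an unadjusted p under 0.05. Between W44 and W43 no member of 85 passed, against 0.00343% of all genes. An unadjusted p under 0.05 was found for 3 members and for 1286 of all 29132 genes. Without the 10-50 mg coat of W43, or without that of W44, 2 members were lower in W44.

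Whole seeds at 5 DAF, which hold the embryo and its nourishing tissue, were compared with the youngest coats of the same line. The whole seeds are labelled by age and the coats by seed weight, 10-25 mg in T157 and Richland and 5-6 mg in W55. Stage and tissue therefore cannot be told apart here. The PIN-type sum was 61.8 to 89.1 RPKM in the 4 whole seeds and 25.0 to 36.2 RPKM in the 10-25 mg coats of T157 and Richland. In the fit over T157, Richland and W55, 38 members of 85 were higher and 1 was lower by limma. Over all genes 27.2% were higher and 2.25% lower, and the median log2 fold change was 0.90. That median goes with the W55 coats of 5-6 mg, in which most alignments fell in undescribed models. In T157 and Richland alone 24 members were higher and 16 lower of 90, against 15.9% and 14.7% of all genes, with an all-gene median of 0.05. Values by line, or the fold change in T157 and Richland alone, are therefore given as well. The genes below passed also in T157 and Richland alone except where stated. Without either W55 coat or either W55 whole seed, 13 to 20 members were higher.

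Glyma.13G038400, of the PIN6 type, was found in the whole seeds, and at 7.76 RPKM in the flower, and hardly in any coat. It had 5.83 RPKM in T157 whole seed against 0.0479 RPKM in its coat, 6.76 RPKM in Richland whole seed against 0.0188 RPKM in its coat, and 16.2 and 10.5 RPKM in W55 whole seeds against 0.0242 and 0 RPKM in W55 coats. The log2 fold change of RPKM + 1 was 3.31 (SE 0.46, limma adjusted p = 9.99e-07). The coats averaged 0.0227 RPKM, so the gene passed the filter of 1 RPKM through the whole seeds alone. The size of this change depends on the 1 added to RPKM.

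The IAA14-type gene of late coats was high here as well. Glyma.03G158700 had 36.5 RPKM in T157 whole seed against 2.66 RPKM in its coat, and 53.5 RPKM in Richland whole seed against 3.55 RPKM in its coat. Whole seeds and coats did not overlap, and the log2 fold change over the lines was 3.62 (SE 0.53, limma adjusted p = 3.03e-06). In T157 and Richland alone it was 3.47 (SE 0.19). Glyma.19G161100 was higher by 3.51 over the lines and by 3.67 in T157 and Richland alone. Glyma.13G117100 (IAA31), lower in late coats, passed in both fits and had 30.5 RPKM in T157 whole seed against 4.52 RPKM in its coat, and 30.3 RPKM in Richland whole seed against 9.68 RPKM in its coat. The IAA4 type went the other way in these lines, with 3 of 5 tested genes lower and 1 higher. Glyma.02G142600 had 0.897 RPKM in T157 whole seed against 19.3 RPKM in its coat, and 2.21 RPKM in Richland whole seed against 21.6 RPKM in its coat. In T157 and Richland alone its log2 fold change was -3.12 (SE 0.23, limma adjusted p = 0.00317). In W55 it had 3.93 and 5.98 RPKM in whole seeds against 0.945 and 0.980 RPKM in coats.

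Glyma.03G208800 (ARF2) was the lower member of the fit over 3 lines, with a log2 fold change of -2.18 (SE 0.52, limma adjusted p = 0.00268). It had 6.99 RPKM in T157 whole seed against 21.2 RPKM in its coat, 0.315 RPKM in Richland whole seed against 30.4 RPKM in its coat, and 0.0276 and 0.0720 RPKM in W55 whole seeds against 0.971 and 2.58 RPKM in W55 coats. The T157 whole seed was well above the other whole seeds. Over the ARF genes, 3 were higher and 11 lower of 42 in T157 and Richland alone, against 15.9% and 14.7% of all genes. The fit over 3 lines went the other way, with 12 higher and 1 lower of 39, against 27.2% and 2.25% of all genes. With libraries scaled over models with a description, that fit gave 13 higher and 2 lower of 42. Over all 30523 genes it then gave 5537 higher and 2521 lower. The balance of ARF calls thus depended on the lines fitted.

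Leaf and root came from 2 libraries each and from different lines, so line and tissue cannot be told apart. Of 92 members 14 were higher in leaf and 32 lower by limma, against 58% of all genes (19.4% higher and 38.6% lower), whose median was -0.32. Efflux carriers were lower in leaf in 11 of 19 cases and higher in 3. With rescaling by the median ratio 24 members were higher and 28 lower, and the share of higher calls among all genes was 48.5% in place of 33.4%. Without W54 root 5 members were higher and 15 lower, and without W55 root 5 were higher and 18 lower.

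All 4 ARF9-type genes were lower in leaf. Glyma.01G103500 had 13.9 and 6.15 RPKM in the leaves of T157 and Richland and 82.6 and 87.4 RPKM in the roots of W55 and W54, a log2 fold change of -3.06 (SE 0.39, limma adjusted p = 0.0016). Leaves and roots were far apart. Glyma.03G070500 had 17.3 and 8.38 RPKM in leaves and 69.6 and 80.0 RPKM in roots. In Arabidopsis ARF9 acts in the suspensor of the embryo. The PIN2-type genes Glyma.13G101900 and Glyma.17G057300 had no read in either leaf. In roots they had 4.38 and 7.24 RPKM, and 4.53 and 7.32 RPKM. These values are so alike that reads may be shared between the copies.

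The PIN3-type genes ran the other way, with 2 of 3 higher in leaf. Glyma.20G014300 had 11.4 and 9.96 RPKM in leaves and 1.44 and 1.35 RPKM in roots (log2 fold change 2.28, SE 0.17, limma adjusted p = 0.000278). Leaves lay above roots in both lines of each. The ARF10 type was higher in leaf in 3 of 3 cases, with 3.55 and 2.75 RPKM in leaves against 0.685 and 0.729 RPKM in roots for Glyma.12G076200. Both IAA11-type genes were lower in leaf, and Glyma.20G225000 (IAA16) had 16.1 and 14.98 RPKM in leaves against 55.2 and 66.1 RPKM in roots.

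Flooded roots of 5-day Williams seedlings were set beside the unflooded roots of 4-week W55 and W54, so age and flooding cannot be told apart. Of 97 members with values, 8 were at least 2-fold higher in both flooded roots than in both unflooded roots, against 8.02% of all genes. Lower were 3 members, against 7.51% of all genes, and these counts by fold were not tested. The count of higher members lies near the share of all genes. Of the higher ones 7 were AUX/IAA genes. Glyma.13G361100 (IAA19) had 11.4 RPKM at 12 h and 10.0 RPKM at 24 h, against 1.77 and 1.67 RPKM in unflooded roots of W55 and W54. Glyma.10G180100 (IAA14) had 57.4 and 55.3 RPKM after flooding and 16.8 and 23.3 RPKM in unflooded roots. The eighth was Glyma.15G208600 (PIN2), the gene of late coats, with 10.9 and 15.4 RPKM after flooding and 2.27 and 1.08 RPKM in unflooded roots. The ARF9-type gene Glyma.01G103500 was lower, with 30.3 and 36.1 RPKM after flooding. Cupin, albumin and oleosin genes, listed to check for embryo and cotyledon, summed to 12668 to 18117 RPKM in flooded roots. They summed to 2982 to 3273 RPKM in unflooded roots and to 1550 to 2750 RPKM in whole seeds, so this list did not single out the seed. The part of these genes in the auxin gene differences was not tested.

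The other genes of the auxin pathway were counted from lists made by description, among the genes that averaged at least 1 RPKM in the libraries fitted. The shares of all genes to set beside these counts are those given above, 13.4% higher and 26.6% lower in the hilum, 26.6% and 31.1% in late coats, and 19.4% and 38.6% in leaf. GH3 enzymes, which join auxin to amino acids and are classic auxin-induced genes, were higher in late coats in 12 of 14 cases and lower in 1, with a median log2 fold change of 1.24. In the hilum 0 were higher and 5 lower of 10 tested, from a list of 28. Glyma.06G260800 averaged 9.03 RPKM in late coats and 1.49 RPKM in early coats. In leaf against root 0 were higher and 14 lower of 14, and Glyma.01G190600 averaged 0.0554 RPKM in leaves and 33.8 RPKM in roots. The SAUR genes, small auxin-induced growth regulators, were higher in the hilum in 9 of 20 cases and lower in none, and in late coats 7 were higher and 8 lower of 19. Glyma.06G007100 averaged 20.1 RPKM in the hilum and 6.15 RPKM in the coat.

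Of the influx carriers of the AUX1 and LAX family, both tested genes were lower in late coats. Glyma.06G110200 (LAX3) averaged 0.923 RPKM in late coats and 4.71 RPKM in early coats. In the hilum none of 3 passed. Of the TIR1 and AFB receptors 4 of 8 were lower in late coats and none higher, with a median log2 fold change of -0.27. Glyma.04G093500 (AFB5) averaged 2.69 RPKM in late coats and 3.92 RPKM in early coats. In the hilum 1 receptor was higher and 1 lower of 8. The auxin synthesis genes tested were both of the TAR2 type, an aminotransferase that turns tryptophan into the auxin precursor. Glyma.05G040400 was higher in late coats, with 5.48 RPKM against 1.504 RPKM in early coats, and lower in the hilum, with 0.500 RPKM against 1.71 RPKM in the coat. Of 28 ABCB-type transporters 16 were tested in the hilum, with 4 higher and 4 lower. Glyma.17G259100 averaged 7.95 RPKM in the hilum and 1.11 RPKM in the coat. In late coats 7 were higher and 8 lower of 15, and Glyma.01G016500 averaged 3.99 RPKM in late coats and 47.1 RPKM in early coats. Genes that free auxin from its conjugates were lower in 2 of 4 cases both in late coats and in the hilum. Dormancy- and auxin-associated genes were higher in 3 of 5 cases in late coats and in 2 of 5 in the hilum, and other B3 factors described as auxin-responsive were higher in 6 and lower in 3 of 12 in late coats, with 3 and 3 of 12 in the hilum.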

How the data were processed

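The authors deposited RPKM values per transcript model, 88647 models a table, made from reads per kilobase of cDNA and the library's total alignments. The submitters' processing notes name Bowtie, and its settings and the genome build were not found in the labels or headers. A read that matches several copies may have been counted in each, so values of near-identical copies are uncertain. Kits were TruSeq, stranded in some libraries, and whether counting used strand is unknown. For each gene the longest model was kept. RPKM times length gave whole reads within 0.01 reads. A level of 0 allows up to 3 reads, counting error only. The 4 value columns without a matching sample label were not used.

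Tests used limma (version 3.58.1, R version 4.3.3, trended eBayes) with log2(RPKM + 1), which understates changes of low genes, on genes averaging 1 RPKM or more, with Benjamini-Hochberg adjustment across every gene tested. The steps were tested on simulated data. Tables and figures were made with matplotlib 3.10.9, scipy 1.17.1, numpy 2.4.6 and pandas 2.3.3 under python 3.11.15. The hilum libraries' numbers fall into series whose deviations correlated at 0.44 to 0.66, and the series was tried as a block. Other alternatives were a pseudocount of 0.1, no filter, rescaling by the median ratio, subsets of lines, log2 weight as a number, leaving out each library and, chosen after seeing the data, scaling over described models.

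Members and lists were chosen with earlier results of these data known. Members were named, per comparison and role, as up to 5 most raised and 5 most lowered among those called with at least 1 RPKM in the higher group, as the 4 of each role with the highest median, and as the highest in each tissue. Of the other pathway lists up to 3 called genes per comparison could be named. Glyma.20G210400, Glyma.12G174100, Glyma.03G158600, Glyma.10G180000 and genes named as copies, as exceptions or for not passing were chosen after their values were seen. Some efflux carrier results are not reported here.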

Additional observations from a re-analysis of the deposited data

Results flagged for a closer look

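The IAA4-type gene Glyma.19G161000 was picked out because its late against early difference differed between pairs of lines by the interaction test. The difference in W44 and W43 minus that in T157 and Richland was -1.85 on the log2 scale (limma adjusted p = 0.0211, over 19 coats). Late minus early was 0.03 in W44, 1.35 in W43, 2.11 in T157 and 2.89 in Richland. The adjusted p was 0.135 with a pseudocount of 0.1. The summed levels of AUX/IAA, ARF and efflux genes were also screened for a library far from the others in the hilum, the coat without hilum and the early W44 coats, 9 sets in all. No library passed Dixon's test, which with 4 libraries a set needs a gap of most of the range and says little about stability. In the W44 coat of 50-100 mg the AUX/IAA sum was 260.5 RPKM and the efflux sum 25.9 RPKM, against 530.7 to 602.2 RPKM and 51.4 to 68.0 RPKM in the other early W44 coats.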

How the results depend on the processing

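Of 1379 values of named members under the alternatives, 1251 kept their sign and their side of the threshold, and the others missed it with the same sign. For 50-100 against 25-50 mg in dissected coats, members higher and lower were 1 and 3 with a pseudocount of 0.1, 1 and 2 with rescaling and 3 and 4 with the replicate block, and 619 genes passed with that pseudocount, 2632 with the block and 0 without a filter, against 313 as reported. The interaction of tissue and weight called 0 genes with the pseudocount of 0.1, 21 without a filter and 93 with the block. Late against early coats gave 19 members higher in W43 and W44 alone, and 48 lower and 27129 genes called without a filter. The interaction between line pairs gave 2 members higher and 3 lower without a filter and with rescaling, 2 and 4 scaled over described models and 0 lower with the pseudocount of 0.1; all genes called were 50 (pseudocount), 571 (no filter), 1357 (rescaling) and 1248 (described models). W44 against W43 called 0 genes without a filter, with rescaling and scaled over described models. Whole seed against coat gave 19 members higher and 0 lower without a filter, 22 and 4 with rescaling, 78 and 0 in W55 alone, 24 and 16 in Richland and T157 alone, and 4 lower scaled over described models; genes called were 3751 without a filter, 3771 with the replicate block, which used number pairs that correlated at -0.10, and 24148 in W55 alone. Leaf against root gave 24 members higher with rescaling. The block called 28 members higher and 26 lower in the hilum.

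Leaving out each library in turn gave these lowest and highest counts. Dissected weights gave 0 to 1 members higher and 0 to 50 genes, and the tissue by weight interaction 0 genes. Between line pairs 0 to 2 members were higher, 0 to 2 lower and 39 to 804 genes called, the last without the W44 coat of 50-100 mg. W44 against W43 gave 0 to 2 members lower and 0 to 300 genes. Whole seed against coat gave 13 to 54 members higher and 1927 to 12870 genes. Leaf against root gave 5 to 17 members higher, 15 to 47 lower and 9030 to 22463 genes. The cause of these moves was not tested. Depth limited few of these values, since 1 read per kb stood for at most 0.0553 RPKM.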

Other observations

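Several AUX/IAA genes have consecutive gene IDs, an IAA4- or IAA3-type gene with one of the IAA14 type, or an IAA19-type gene with one of the IAA17 type. These neighbours by ID did not always have like levels. Glyma.03G158700 (IAA14) averaged 38.2 RPKM in whole seeds and 81.9 RPKM in late coats, while its neighbour Glyma.03G158600 (IAA4) averaged 0.794 RPKM in whole seeds and 19.8 RPKM in late coats. Glyma.19G161100 (IAA14) averaged 20.6 RPKM in whole seeds and 24.8 RPKM in late coats, and its neighbour Glyma.19G161000 (IAA4) 0.182 and 5.10 RPKM. Glyma.10G180000 (IAA3) and Glyma.10G180100 (IAA14) averaged 25.3 and 26.2 RPKM in leaves and 25.4 and 20.1 RPKM in roots. In early coats they averaged 1.36 and 0.00451 RPKM. Glyma.13G361200 (IAA17) and Glyma.13G361100 (IAA19) averaged 140 and 33.3 RPKM in whole seeds, against 0.192 and 1.72 RPKM in roots.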
